A study of Danio rerio with 12 samples.

Results

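The miR-27 family of zebrafish was followed through 12 small RNA libraries of whole embryos. The family was taken as every deposited feature named mir-27a, mir-27b, mir-27c, mir-27d or mir-27e (written miR-27a to miR-27e here), which gave 10 features: the major and the minor (star) arm of 5 hairpins, out of 464 miRNA features in all. No member had a second copy in the tables, and 10 of 10 members passed the filter on low counts that left 410 features to test. The family was chosen by the counts of miR-27e in these same libraries, which had been seen to differ between exposed and control embryos. TCDD against DMSO values are therefore a description, and nothing is read from the number of members that the fit over all features called in them.

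Embryos of the TL wild type strain received TCDD, a dioxin that binds and activates the aryl hydrocarbon receptor, or DMSO, the solvent control. They were taken at 60 or 36 hours post fertilisation (hpf). The 4 groups of 3 libraries were 60 hpf TCDD, 60 hpf DMSO, 36 hpf TCDD and 36 hpf DMSO, and the strain and the tissue were common to all. The labels used here give no dose, length of exposure or clutch, so the spread between libraries may be technical. A whole embryo mixes all tissues, and fewer cells of a type and less RNA per cell cannot be told apart.

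A miRNA is cut from a hairpin as a short duplex, of which the major arm is usually loaded into the silencing complex while the minor arm is usually degraded. In vertebrates miR-27 hairpins are transcribed together with those of miR-23 and miR-24. miR-27 is enriched in the endothelium, where in mouse and zebrafish it promotes vessel sprouting, and in zebrafish it is needed for cartilage of the pharyngeal arches. In human cells miR-27b represses CYP1B1, a cytochrome P450 gene that the aryl hydrocarbon receptor induces. The zebrafish miR-27 hairpins all lie next to a miR-23 and a miR-24 gene in the RefSeq gene table of assembly GRCz12tu. Shared transcription was not tested. The nearest miRNA genes were mir23a-3 and mir24b for miR-27a, mir24-3 and mir23b-2 for miR-27b, and mir23a-2 and mir24-2 for miR-27c. They were mir23b and mir24-1 for miR-27d, and mir23a-1 and mir24-4 for miR-27e.

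Depth was 459634 to 4210840 miRNA counts per library, so that 1 count stood for between 0.191 and 2.47 CPM. At 36 hpf it was 1236528, 739920 and 459634 in TCDD libraries and 648934, 1408510 and 3557670 in DMSO libraries. CPM are counts scaled to 1000000 per library after correction by TMM factors. Markers of muscle, blood, nerve, epidermis, liver, cartilage and endothelium were present in the libraries. Of 5 endothelial names 4 were found. No feature bore the name miR-222a. A feature named miR-222, with 67178 counts over all libraries, was present but did not enter the endothelial sums. The TMM factors were 1.21, 1.23 and 1.24 in the 60 hpf TCDD libraries, against 0.957, 1.07 and 0.956 in the 60 hpf DMSO libraries, and 0.856 to 0.957 at 36 hpf.

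The family was a minor part of the embryo's miRNA. Its arms held 0.0396% to 0.0929% of the miRNA counts in 60 hpf TCDD libraries, 0.0377% to 0.0453% in 60 hpf DMSO, 0.0289% to 0.0524% in 36 hpf TCDD and 0.0283% to 0.0446% in 36 hpf DMSO libraries. Averaged over all 12 libraries, miR-27c was the most abundant member at 118 CPM (rank 219 of 464), followed by miR-27b at 80.7 CPM and miR-27c* at 78.2 CPM. miR-27e averaged 60.6 CPM, miR-27d 39.5 CPM and miR-27a 28.2 CPM. The remaining minor arms averaged 23.7 CPM for miR-27b*, 23.1 CPM for miR-27a*, 18.7 CPM for miR-27e* and 3.99 CPM for miR-27d*.

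**Figure D1:**
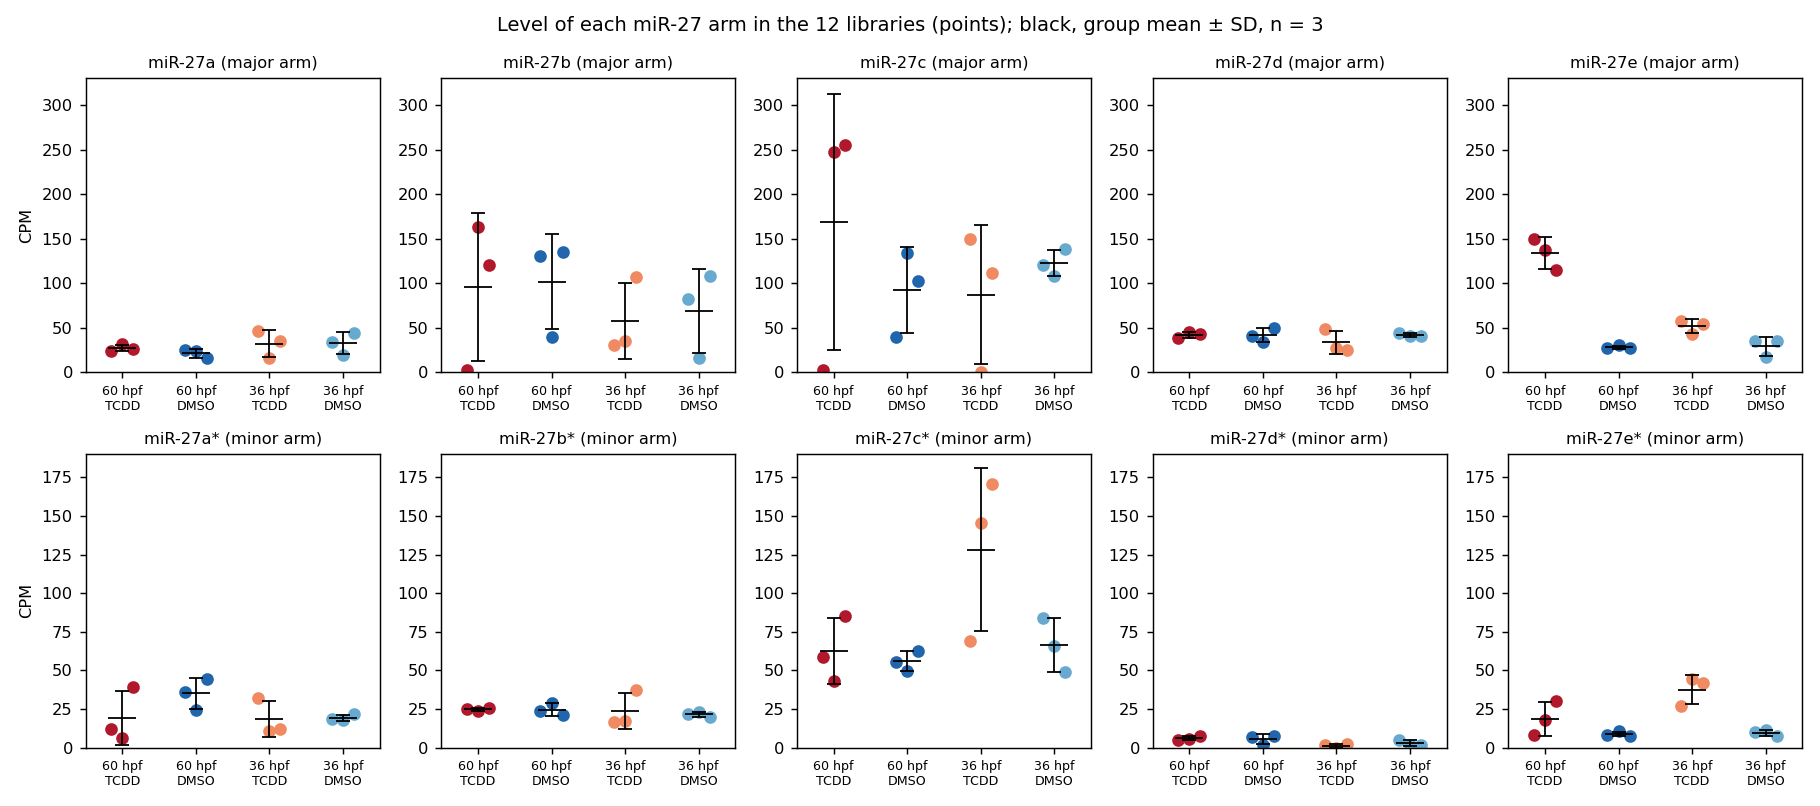
Level in CPM (vertical axes) of each of the 10 miR-27 arms in the 4 groups, with 1 point per library and the group mean ± SD (n = 3) in black. The 3 points of miR-27e in 60 hpf TCDD embryos, at 115 to 149.7 CPM, lie above the other 9 libraries, while miR-27b and miR-27c each have a point near 0 in that group.

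The order of the members differed between the groups. In 60 hpf TCDD embryos miR-27e was second, at 134 ± 17.7 CPM, behind miR-27c at 169 ± 144 CPM and ahead of miR-27b at 95.3 ± 82.9 CPM (SD, n = 3 each). In 60 hpf DMSO embryos it was sixth at 28.0 ± 1.65 CPM, in 36 hpf TCDD embryos it had rank 4 at 51.6 ± 7.95 CPM and in 36 hpf DMSO embryos sixth at 29.0 ± 10.5 CPM. Minor arms changed place as far: miR-27e* had rank 5 in 36 hpf TCDD embryos and rank 9 in the other groups, miR-27a* ranks 5 to 9, and miR-27c* rank 1 in 36 hpf TCDD embryos and ranks 3 and 4 elsewhere. The ranges of most neighbours in these orders overlapped. Overlap ignores that 2 arms share their libraries, so a pair can overlap and keep 1 order throughout. In 60 hpf DMSO libraries miR-27c* was at 55.3, 49.9 and 62.6 CPM and miR-27d below it each time, at 40.8, 34.2 and 49.9 CPM. Neighbours whose libraries did not overlap were miR-27d above miR-27a and miR-27e* above miR-27d* in 60 hpf TCDD embryos, and miR-27a above miR-27e* in 60 hpf DMSO embryos. At 36 hpf they were miR-27a* above miR-27d* in TCDD embryos, and in DMSO embryos miR-27c above miR-27b, miR-27c* above miR-27d, miR-27a* above miR-27e* and miR-27e* above miR-27d*. Small RNA libraries also capture some sequences better than others, so an order of levels between miRNAs is an order of counts.

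miR-27e, the major arm of the hairpin between mir23a-1 and mir24-4, was measured at 149.7, 137 and 115 CPM in 60 hpf TCDD libraries, against 27.1, 29.9 and 26.9 CPM in 60 hpf DMSO libraries. These values rested on 582, 338 and 601 counts in TCDD and 97, 76 and 83 counts in DMSO libraries. The groups did not overlap, and the lowest TCDD library was 3.84 times the highest DMSO library. The fitted log2 fold change was 2.26 (SE 0.34), the fifth largest in size of the 410 features. At 36 hpf the same arm stood at 57.8, 42.6 and 54.4 CPM in TCDD libraries, against 35.2, 16.8 and 34.9 CPM in DMSO libraries. Here too the groups did not overlap, but the gap was narrow, 1.21 times between the lowest TCDD and the highest DMSO library, and the log2 fold change was 0.83 (SE 0.34). Counts were low at 36 hpf, at 67, 27 and 22 in TCDD and 21, 21 and 119 in DMSO libraries. The libraries on either side of the gap held 27 and 21 counts. The difference of the 2 effects was 1.42 (SE 0.47).

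Its minor arm miR-27e* had its larger TCDD value at 36 hpf. It was at 8.23, 17.8 and 30.0 CPM in 60 hpf TCDD libraries, against 8.38, 10.6 and 7.78 CPM in 60 hpf DMSO libraries, so that the groups overlapped (log2 fold change 1.07, SE 0.45). At 36 hpf it was at 26.7, 44.2 and 42.0 CPM in TCDD libraries, against 10.1, 11.2 and 7.34 CPM in DMSO libraries. All TCDD libraries lay above all DMSO libraries at 36 hpf, by 2.38 times between the nearest, and the log2 fold change was 1.99 (SE 0.49). Counts were low, at 31, 28 and 17 in 36 hpf TCDD and 6, 14 and 25 in 36 hpf DMSO libraries. For this arm the difference of the 2 effects was -0.92 (SE 0.66).

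Across the family, 1 of 10 arms had all TCDD libraries above all DMSO libraries at 60 hpf (miR-27e), where 10.7% of all tested features did. At 36 hpf 2 of 10 arms did (miR-27e and miR-27e*), where 3.41% of all tested features did, and 0 arms had all TCDD libraries below at either time (1.95% of all tested features at 36 hpf and 10.7% at 60 hpf). edgeR's quasi-likelihood test with Benjamini-Hochberg adjustment over 410 features called 1 of 10 arms at 60 hpf (miR-27e), against 0.244% of all features. It called 0 of 10 at 36 hpf, against 0% of all features, with 17 features at an unadjusted p under 0.05; DESeq2 and limma-voom also called 0 of the 410 there. Nothing is read from these counts, since these contrasts led to the choice of the family. The call of miR-27e at 60 hpf ended without any of the 60 hpf DMSO libraries and without 60 hpf TCDD replicate 1 or 2, while its log2 fold change stayed within 2.17 to 2.36. The median log2 fold change of the 10 arms was 0.13 at 60 hpf and -0.01 at 36 hpf, and that of all tested features 0.00 and 0.05.

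**Figure D2:**
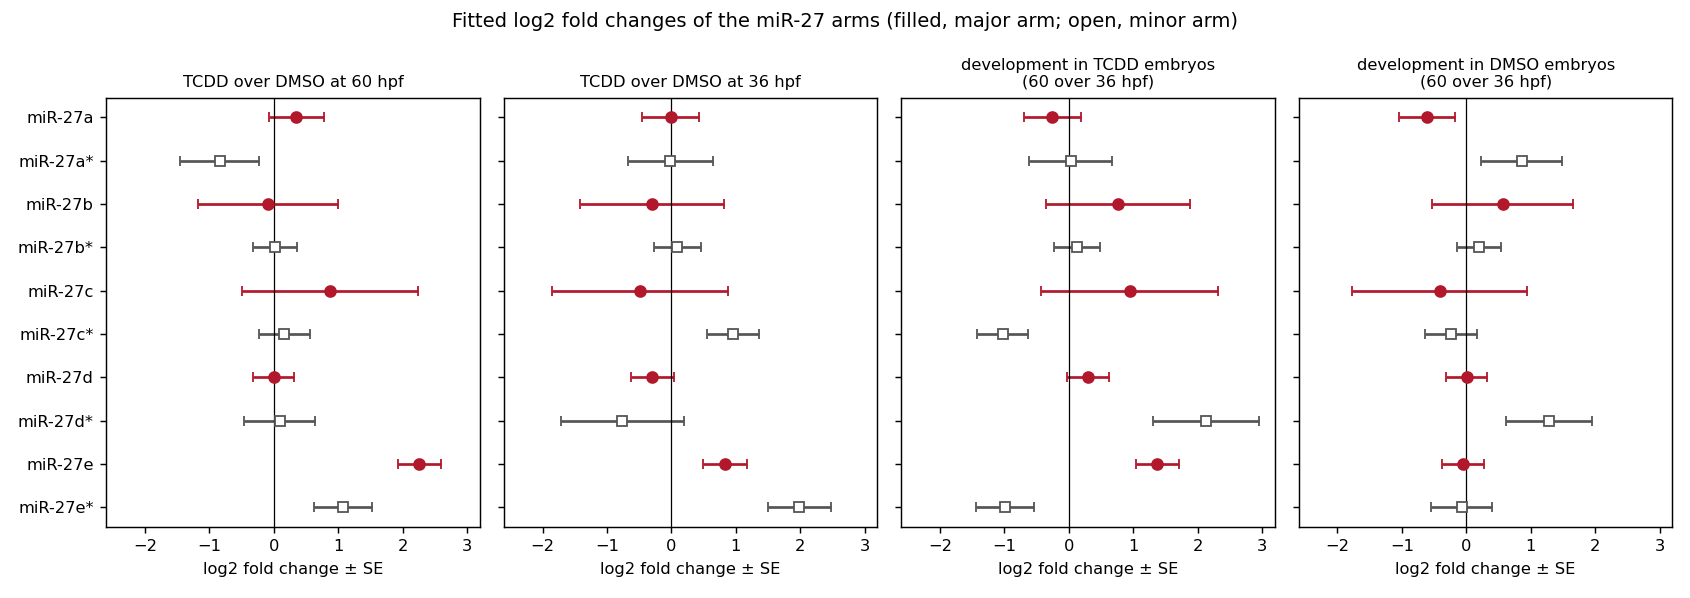
Fitted log2 fold change ± SE (horizontal axes) of the 10 miR-27 arms in TCDD against DMSO embryos at 60 and 36 hpf, and at 60 against 36 hpf in TCDD and in DMSO embryos; filled points are major arms, open squares minor arms. miR-27e stands at 2.26 for TCDD at 60 hpf and at -0.05 for development in DMSO embryos, and the widest errors belong to miR-27b and miR-27c.

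miR-27b and miR-27c, the most abundant major arms, varied widely between libraries of a group. miR-27c was at 2.57, 248 and 256 CPM in 60 hpf TCDD libraries, against 39.7, 134 and 103 CPM in 60 hpf DMSO libraries. At 36 hpf it was at 150.1, 0 and 111 CPM in TCDD libraries, against 121, 108 and 138 CPM in DMSO libraries. The groups overlapped at both times, with log2 fold changes of 0.87 (SE 1.36) at 60 hpf and -0.49 (SE 1.37) at 36 hpf. With 1 library left out the values ran from 0.44 (without TCDD replicate 3) to 1.44 (without TCDD replicate 1) at 60 hpf, and from -1.21 (without TCDD replicate 1) to 0.0045 (without TCDD replicate 2) at 36 hpf. The library without a count of miR-27c, 36 hpf TCDD replicate 2, allowed up to 4.74 CPM (3 counts, counting error only), and 60 hpf TCDD replicate 1 had 10 counts. The cause of these near-absences was not tested.

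miR-27b was at 2.83, 163 and 120.3 CPM in 60 hpf TCDD libraries, against 131, 39.7 and 135 CPM in 60 hpf DMSO libraries. In embryos of 36 hpf it was at 30.2, 34.7 and 106 CPM in TCDD libraries, against 82.2, 16.04 and 108 CPM in DMSO libraries. The groups overlapped at both times (log2 fold changes -0.09, SE 1.08, and -0.30, SE 1.12). The sign turned with the library left out, from -0.71 (without TCDD replicate 2) to 0.48 (without TCDD replicate 1) at 60 hpf, and from -1.15 (without TCDD replicate 3) to 0.25 (without DMSO replicate 3) at 36 hpf. The library lowest in miR-27b at 60 hpf was the one nearly lacking miR-27c, TCDD replicate 1. Of the features with a median of 20 CPM or more in the other 11 libraries, 2 were over 20 times below that median in that library. These were miR-27b and miR-27c (a comparison chosen after the values were seen). In the other libraries 1 to 10 features were that far below. Not counted because its median was under 20 CPM, let-7h had 3 counts (0.77 CPM) in 60 hpf TCDD replicate 1. It was at 35.7 to 66.1 CPM in the rest of the 60 hpf libraries. Less far below, miR-125b-3* was at 15.9 CPM in that library, against 124 to 244 CPM in the rest of the 60 hpf libraries. In 36 hpf TCDD replicate 2, the library without a count of miR-27c, miR-125b-3* was at 25.3 CPM, against 116 to 193 CPM in the rest of the 36 hpf libraries.

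The minor arms of the same hairpins were not low in that library. miR-27c* was at 58.9, 43.0 and 85.4 CPM in 60 hpf TCDD libraries, against 55.3, 49.9 and 62.6 CPM in 60 hpf DMSO libraries. miR-27b* was at 24.95, 23.9 and 26.0 CPM against 23.7, 29.1 and 21.1 CPM in the same groups. Both arms overlapped between TCDD and DMSO at 60 hpf, with log2 fold changes of 0.16 (SE 0.40) for miR-27c* and 0.02 (SE 0.34) for miR-27b*. At 36 hpf miR-27c* was at 69.0, 145 and 171 CPM in TCDD libraries, against 83.9, 65.8 and 49.0 CPM in DMSO libraries. The value of 145 CPM came from the library with no count of miR-27c. The log2 fold change of miR-27c* at 36 hpf was 0.95 (SE 0.41), with 2 of 3 TCDD libraries above all DMSO libraries. Within each treatment at 36 hpf miR-27c* rose as depth fell, and the part of depth was not tested. miR-27b* at 36 hpf was at 16.4, 17.4 and 37.1 CPM with TCDD and 21.8, 23.3 and 19.7 CPM in DMSO libraries (0.09, SE 0.36), and was -0.39 without 36 hpf TCDD replicate 3.

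miR-27d and miR-27a, the remaining major arms, overlapped between TCDD and DMSO at both times. miR-27d stood at 41.5 ± 3.43 CPM with TCDD and 41.6 ± 7.92 CPM with DMSO at 60 hpf, and at 33.3 ± 13.04 CPM with TCDD and 41.5 ± 1.87 CPM with DMSO at 36 hpf (SD, n = 3 each). Its log2 fold changes were 0.00 (SE 0.32) at 60 hpf and -0.29 (SE 0.33) at 36 hpf, or -0.67 without 36 hpf TCDD replicate 1. miR-27a stood at 27.03 ± 3.76 CPM with TCDD and 21.2 ± 4.95 CPM with DMSO at 60 hpf, and at 32.0 ± 15.1 CPM with TCDD and 32.4 ± 12.6 CPM with DMSO at 36 hpf. Its log2 fold changes were 0.35 (SE 0.43) and -0.01 (SE 0.45), at 60 and 36 hpf.

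The minor arm miR-27a* was lower by mean in TCDD embryos at 60 hpf, at 12.3, 6.48 and 39.3 CPM in TCDD libraries, against 36.3, 24.4 and 44.8 CPM in DMSO libraries. The groups overlapped through TCDD replicate 3 (log2 fold change -0.84, SE 0.61), without which the value was -1.88. At 36 hpf it stood at 18.4 ± 11.7 CPM with TCDD and 19.3 ± 2.16 CPM with DMSO (-0.01, SE 0.66), and the value was -0.74 without TCDD replicate 1. miR-27d* was close to the limit of the depth, with 0 to 39 counts per library. It stood at 6.09 ± 1.21 CPM with TCDD and 5.67 ± 3.22 CPM with DMSO at 60 hpf, and at 1.40 ± 1.27 CPM with TCDD and 2.80 ± 1.94 CPM with DMSO at 36 hpf, differences within the spread of the libraries.

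**Figure D3:**
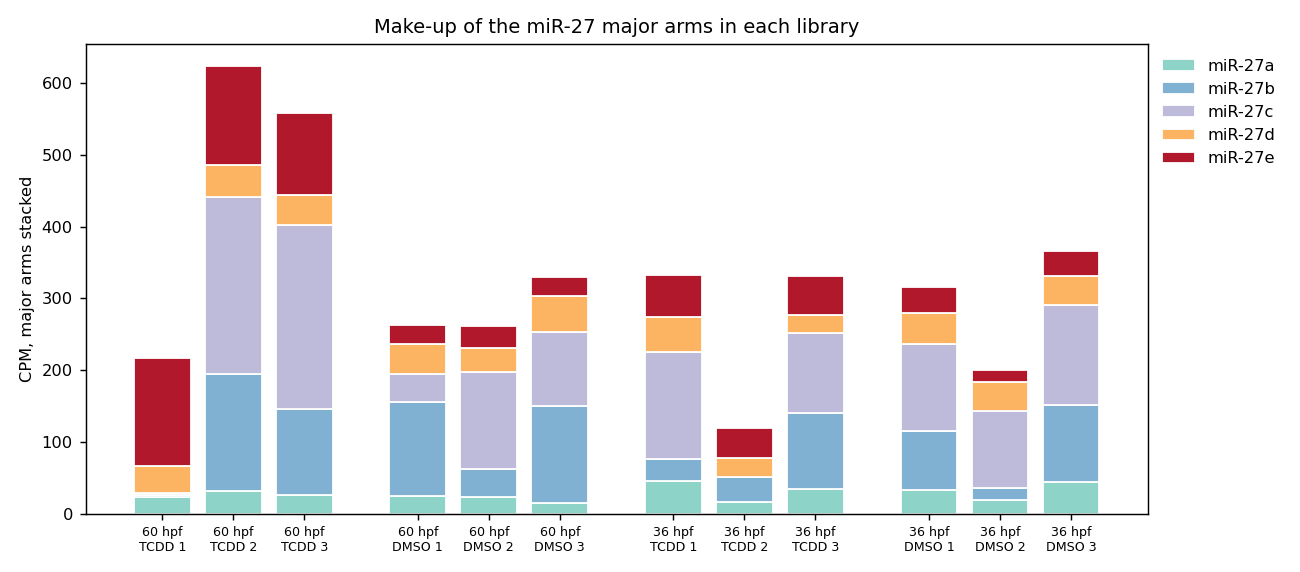
CPM of the 5 miR-27 major arms stacked for each library (vertical axis), with the libraries of a group side by side. miR-27e fills 20.5% to 69.0% of the bar in 60 hpf TCDD libraries and 8.16% to 11.4% in 60 hpf DMSO libraries, and miR-27b and miR-27c are nearly missing from 60 hpf TCDD replicate 1.

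The make-up of the family followed from these levels. miR-27e made up 69.0%, 22.0% and 20.5% of the major-arm CPM in 60 hpf TCDD libraries, against 10.3%, 11.4% and 8.16% in 60 hpf DMSO libraries. In 36 hpf embryos it made up 17.4%, 35.5% and 16.4% in TCDD and 11.2%, 8.40% and 9.54% in DMSO libraries. The TCDD libraries were the higher ones at both times, and the highest share at each time belonged to the library poorest in miR-27c. The 5 major arms summed to 217, 623 and 559 CPM in 60 hpf TCDD libraries, against 263, 261 and 330 CPM in 60 hpf DMSO libraries, so the sums overlapped. Without miR-27e the sums were 67.1, 486 and 444 CPM with TCDD and 236, 231 and 303 CPM in DMSO libraries. The sum of the minor arms at 60 hpf was 132 ± 49.4 CPM with TCDD and 130.3 ± 14.1 CPM with DMSO. For 36 hpf it was 146, 218 and 265 CPM in TCDD libraries, above the 139, 120 and 99.5 CPM of the DMSO libraries. Within each treatment at 36 hpf this sum rose as depth fell, and the part of depth was not tested.

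**Figure D4:**
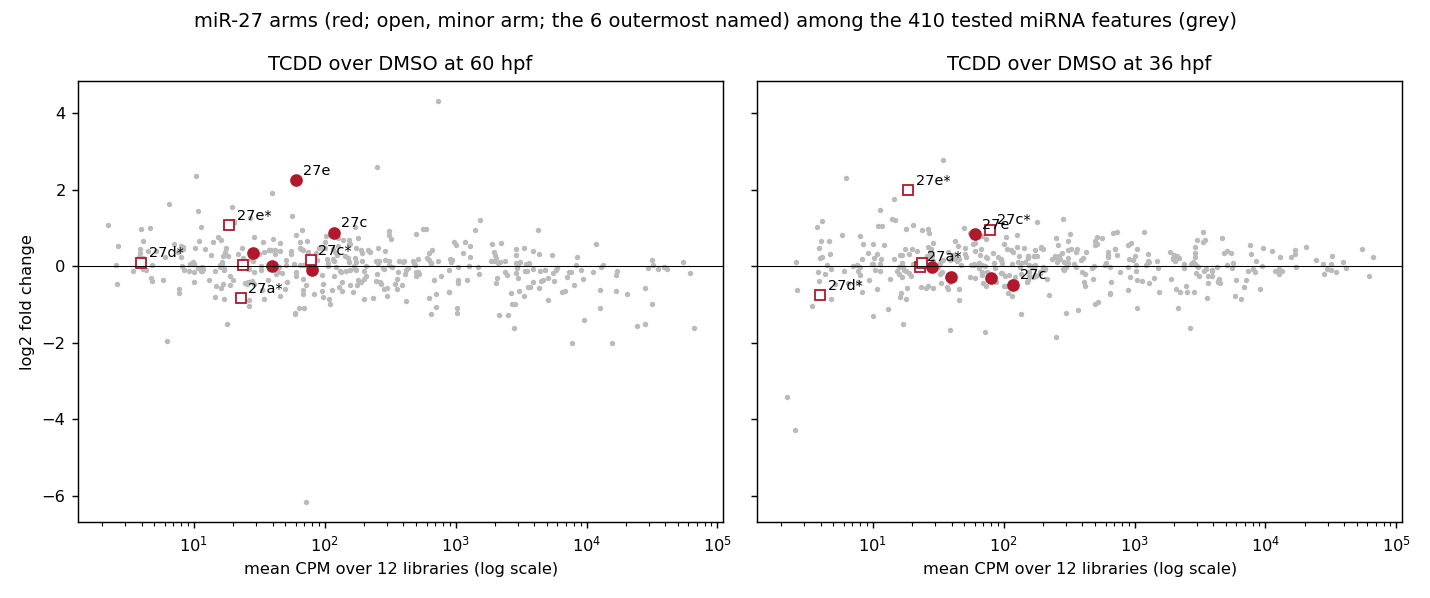
Log2 fold change (vertical axes) of TCDD over DMSO at 60 hpf and at 36 hpf against the mean CPM over 12 libraries (horizontal log axes), for 410 features in grey and the 10 miR-27 arms in red. miR-27e lies at 2.26 at 60 hpf and miR-27e* at 1.99 at 36 hpf, each the fifth largest in size of its comparison, and the other arms lie closer to 0.

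Development from 36 to 60 hpf was compared in DMSO embryos. No TCDD library enters these group means, but the spread was estimated over all 12 libraries, including the TCDD libraries nearly lacking miR-27b or miR-27c. From the 6 DMSO libraries alone the log2 fold change of miR-27c was -0.48 (SE 0.50) and that of miR-27b 0.43 (SE 0.75), against SE of 1.36 and 1.10 over 12 libraries, and again 0 of 10 arms were called. In this comparison 0 of 10 arms passed edgeR's quasi-likelihood test at an adjusted p of 0.05, where 18.3% of all tested features did (52 higher and 23 lower). DESeq2 and limma-voom called none of the 10 either, and 0 of the 10 arms had an unadjusted p under 0.05. miR-27e was at 27.1, 29.9 and 26.9 CPM at 60 hpf, against 35.2, 16.8 and 34.9 CPM at 36 hpf, so that the libraries overlapped (log2 fold change -0.05, SE 0.33, edgeR adjusted p = 0.952). The approximate 95% interval of this log2 fold change was -0.70 to 0.60. The log2 fold change of miR-27e* was -0.07 (SE 0.47) and that of miR-27d 0.01 (SE 0.32). The largest values were 1.28 (SE 0.67) for miR-27d* and 0.86 (SE 0.63) for miR-27a*, with adjusted p of 0.224 and 0.387 by edgeR. As miR-27d* reached 10 counts, the filter's minimum, only in 60 hpf libraries, its rise is a description. The 60 hpf libraries of miR-27a*, at 36.3, 24.4 and 44.8 CPM, lay above those of 36 hpf, at 18.5, 17.6 and 21.7 CPM. It was the 1 of 10 arms without overlap upward, where 25.4% of all features had none, and 0 arms had none downward, where 17.1% did. Also short of the threshold were miR-27b* (0.19, SE 0.35), miR-27c* (-0.24, SE 0.40), miR-27c (-0.41, SE 1.36), miR-27b (0.56, SE 1.10) and miR-27a (-0.62, SE 0.43). The median size of the log2 fold change was 0.32 in the family and 0.73 over all tested features. The 60 hpf DMSO libraries also enter the TCDD comparison that led to the choice of the family.

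In TCDD embryos the same comparison shares the 60 hpf TCDD libraries in which miR-27e was first seen to stand out, so its value is a description. miR-27e was at 149.7, 137 and 115 CPM at 60 hpf, against 57.8, 42.6 and 54.4 CPM at 36 hpf, without overlap (log2 fold change 1.37, SE 0.33). It was the 1 of 10 arms that edgeR called, against 21.5% of all tested features (52 higher and 36 lower). Upward 2 of 10 arms had no overlap, miR-27e and miR-27d*, against 22.9% of all features, and downward 0 did, against 17.6%. With libraries of the same number paired as a block the value was 1.38 (SE 0.40) and no longer a call, and it was 1.29 and no call without 36 hpf TCDD replicate 2. miR-27e* went the other way in value, at 18.7 ± 10.9 CPM at 60 hpf and 37.7 ± 9.52 CPM at 36 hpf (log2 fold change -0.99, SE 0.45, edgeR adjusted p = 0.146). It passed as lower without 60 hpf TCDD replicate 3 (log2 fold change -1.52, adjusted p = 0.0427). miR-27c* stood at 62.4 ± 21.4 CPM at 60 hpf and 128 ± 52.9 CPM at 36 hpf (-1.03, SE 0.40, adjusted p = 0.0922). It passed as lower without 36 hpf TCDD replicate 1 (-1.40, adjusted p = 0.0256) and by DESeq2 (-1.08, adjusted p = 0.0252). miR-27d* had the largest value at 2.13 (SE 0.82, adjusted p = 0.0884), on 20, 14 and 39 counts at 60 hpf and 2, 0 and 1 counts at 36 hpf. As this arm reached 10 counts, the filter's minimum, only in 60 hpf libraries, its rise is a description. The other 6 arms had edgeR adjusted p of 0.567 or more. Of these, miR-27a* was at 0.03 (SE 0.64), or -1.01 without 60 hpf TCDD replicate 3. Whether development differed between TCDD and DMSO embryos is the same quantity as the difference of the TCDD effects between the times. edgeR called 0 of 410 features for it, with 19 at an unadjusted p under 0.05, limma-voom called 0 and DESeq2 6.

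The balance of the 2 arms of each hairpin was measured within each library as the log2 ratio of major to minor counts, which needs no scaling between libraries. The major arm led in 12 of 12 libraries for miR-27d and in 11 for miR-27e, but in 10 for miR-27b and in 8 each for miR-27a and miR-27c. Time was tested by an exact two-sided permutation within treatments (400 arrangements), adjusted over the 5 hairpins. No hairpin passed. The ratio of miR-27d differed by -1.12 between 60 and 36 hpf (60 minus 36 hpf; exact permutation p = 0.0350, adjusted p = 0.113), that of miR-27a differed by -0.65 (p = 0.245, adjusted p = 0.408), and those of miR-27b and miR-27c differed by 0.06 and 0.93 (adjusted p = 0.975 and 0.675). That of miR-27e differed by 1.34 (exact permutation p = 0.0450, adjusted p = 0.113), but this value holds the 60 hpf TCDD libraries that led to the choice of the family, and nothing is read from it. The 36 hpf ratios of miR-27d rested on few minor-arm counts, at 2, 0 and 1 in TCDD and 3, 2 and 6 in DMSO libraries. Over all settings tried its difference was as small as -0.46. In TCDD embryos the ratio of miR-27a was 0.86 ± 1.42 at 60 hpf and 0.80 ± 0.52 at 36 hpf, with overlap. In DMSO embryos it was -0.71 ± 0.74 at 60 hpf and 0.66 ± 0.48 at 36 hpf, without overlap (SD, n = 3 each). The smallest p that 3 against 3 libraries allow is 0.10.

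For miR-27e the ratio of TCDD and DMSO embryos is a description. It was 4.16, 2.93 and 1.93 in 60 hpf TCDD libraries, against 1.68, 1.48 and 1.77 in 60 hpf DMSO libraries. At 36 hpf it was 1.10, -0.05 and 0.36 in TCDD libraries, against 1.73, 0.57 and 2.23 in DMSO libraries. The ratio was thus higher in all TCDD libraries at 60 hpf and overlapped at 36 hpf, where its mean was lower in TCDD (0.47 ± 0.58) than in DMSO embryos (1.51 ± 0.85). In TCDD embryos the ratios of 60 hpf lay above those of 36 hpf without overlap, and in DMSO embryos they overlapped (1.64 ± 0.15 at 60 hpf and 1.51 ± 0.85 at 36 hpf).

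**Figure D5:**
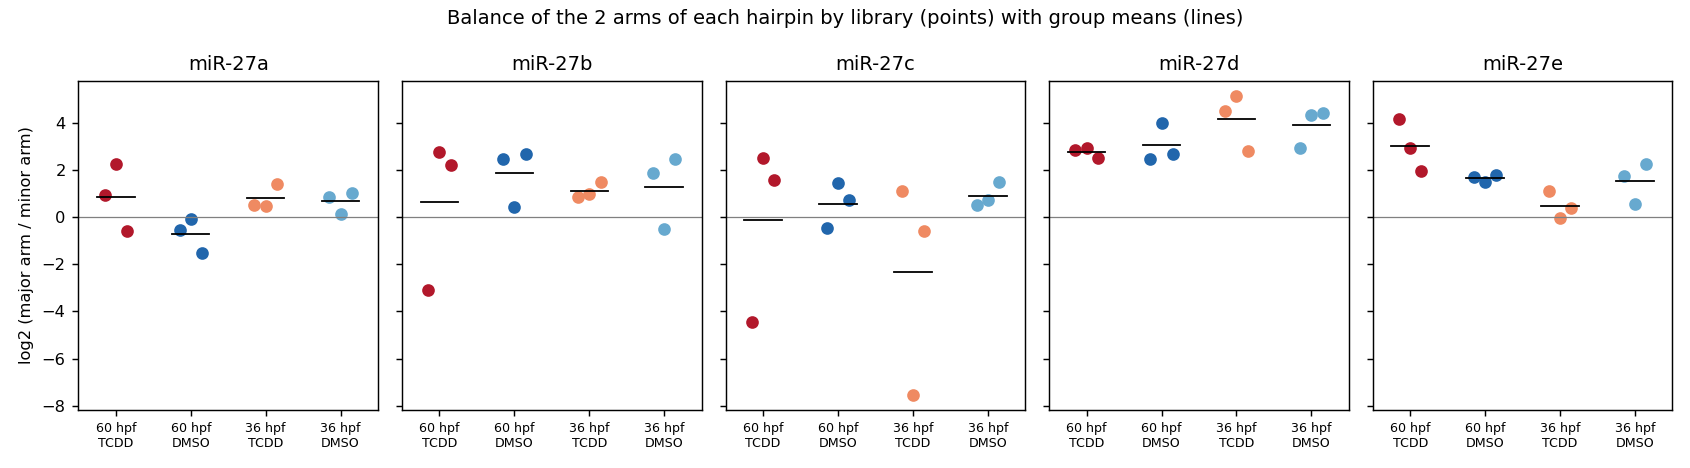
Log2 ratio of major to minor arm counts (vertical axis) of each miR-27 hairpin in the 4 groups, with 1 point per library and a line at the group mean. The group mean of miR-27e is highest in 60 hpf TCDD libraries (1.93 to 4.16), but 36 hpf DMSO replicate 3, at 2.23, lies above the lowest of them. The lowest points of miR-27b and miR-27c belong to the libraries in which their major arms were nearly missing.

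The neighbours of the family, miR-23a, miR-23b and miR-24, were counted as 10 arms. edgeR called 0 of these 10 in any of the 4 comparisons. Of all tested features it called 18.3% and 21.5% for development in DMSO and TCDD embryos, and 0% and 0.244% for TCDD at 36 and 60 hpf. For development in DMSO embryos their median log2 fold change was -0.46 and 2 of 10 were positive. There miR-23a, miR-23a*, miR-23b and miR-24-2* lay wholly lower, where 17.1% of all features did. In TCDD embryos the median was 0.04, 5 of 10 were positive and all overlapped. In TCDD against DMSO embryos at 36 hpf their median log2 fold change was 0.03 and 6 of 10 were positive, where 54.6% of all tested features were. All of them overlapped there, where 3.41% of all features lay wholly higher and 1.95% wholly lower. In TCDD against DMSO embryos at 60 hpf their median log2 fold change was 0.53 and 10 of 10 were positive, where 50% of all tested features were. Of these 4 of 10 had all TCDD libraries above all DMSO libraries, where 10.7% of all features did: miR-24-2*, next to miR-27c, with the largest log2 fold change (2.36, SE 0.78), miR-23a-1* (0.996, SE 0.42), miR-23a (0.54, SE 0.24) and miR-23a* (0.52, SE 0.32). Counts were low, at 109, 31 and 55 with TCDD and 5, 19 and 4 with DMSO for miR-24-2*. For miR-23a-1* they were 24, 14 and 28 with TCDD and 14, 4 and 9 with DMSO. The features miR-23a, miR-23a* and miR-24 each stand for several copies and cannot be assigned to the neighbours of 1 hairpin. miR-23a-1*, next to miR-27e, was at 6.17, 5.67 and 5.35 CPM in 60 hpf TCDD libraries, against 3.91, 1.57 and 2.92 CPM in 60 hpf DMSO libraries. miR-24-4*, on its other side, was at 39.6, 44.6 and 2.29 CPM in TCDD libraries, against 7.54, 17.3 and 14.3 CPM in DMSO libraries, with overlap.

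Of 8 lists of tissue markers, the summed levels of 3 did not overlap between TCDD and DMSO embryos at 60 hpf, and those of 5 did (endothelium, muscle and heart, nerve, epidermis and liver). Of all single features 10.7% lay wholly higher and 10.7% wholly lower in that comparison. The 7 cartilage features summed to 26248 to 27185 CPM in TCDD libraries, against 16350 to 23544 CPM in DMSO libraries, and the 4 erythroid features to 1376 to 3134 CPM against 3905 to 4792 CPM. Of the 7 cartilage features 6 had a positive log2 fold change, with a median of 0.47 over the list. The exception, the major arm miR-199, was lower in every TCDD library than in any DMSO library, while miR-140 and miR-140* overlapped. The 4 smooth muscle features summed to 5224 to 7156 CPM with TCDD and 7185 to 8125 CPM in DMSO libraries, nearly touching, while the 8 endothelial features overlapped, at 8745 to 17020 CPM with TCDD and 9808 to 22557 CPM in DMSO libraries. Most of the smooth muscle sum was miR-145, which overlapped, at 4727, 5454 and 6884 CPM with TCDD and 6728, 6713 and 7672 CPM with DMSO. In the same list miR-143 was at 242, 240 and 197 CPM with TCDD and 220, 196 and 168 CPM with DMSO. No member of these lists was called in TCDD against DMSO embryos at 60 hpf. As the 1 feature of 410 called there was miR-27e (0.244%), nothing is read from this. The part of these markers in the values of miR-27e was not tested.

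The features whose log2 CPM over 12 libraries ran most like that of miR-27e, among 362 others with a mean of 10 CPM or more, were miR-138*, miR-26a-3* and miR-140, with Pearson's r of 0.73, 0.72 and 0.70. Of these, miR-138* was on the nerve list and miR-140 on the cartilage list. At 60 hpf miR-138* was at 150.2, 149.5 and 153.7 CPM with TCDD and 95.3, 77.0 and 118 CPM with DMSO, without overlap. At 36 hpf it was at 65.6, 63.2 and 146 CPM with TCDD and 68.8, 49.7 and 64.6 CPM with DMSO, with overlap. miR-140 averaged 1893 CPM with TCDD and 1222 CPM with DMSO at 60 hpf, and 1040 CPM with TCDD and 564 CPM with DMSO at 36 hpf. Its libraries overlapped at both times. They were at 1946, 2006 and 1728 CPM with TCDD and 705, 2013 and 947 CPM with DMSO at 60 hpf. For 36 hpf the values were 1130, 685 and 1305 CPM with TCDD and 1183, 148 and 361 CPM with DMSO. Most like miR-27a were miR-92b*, miR-196c and miR-153c* (0.77, 0.77 and 0.75), and most like miR-27b were let-7h, miR-125b-3* and miR-135a (0.72, 0.68 and 0.61). miR-27c ran most like miR-125b-3* (0.89), miR-153a* (0.78) and miR-1788 (0.76), and miR-27d like miR-101a* (0.82), miR-181b-1* (0.80) and miR-1788* (0.79). These are descriptions over libraries that share times, treatments and depth, and those of miR-27c and miR-27b were lower without the 2 libraries in which miR-27c was nearly missing. There r of miR-27c with miR-125b-3*, miR-153a* and miR-1788 was -0.04, -0.35 and 0.29, and r of miR-27b with let-7h, miR-125b-3* and miR-135a was 0.41, -0.05 and 0.47.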

How the data were processed

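Small RNA of whole zebrafish embryos was sequenced in 12 libraries, grouped by their labels. The SREK small RNA kit and a SOLiD V3 system were used, per the labels' protocols. The authors deposited 1 table of raw counts for each library, which lists features of 1 count or more; a missing feature was set to 0. edgeR is named in the submitters' processing notes; the aligner, genome build and miRNA release were not given in the sources used here, and near-identical paralogs may share reads. Ensembl transcript rows (1.20% to 5.35% of counts) were left out. Copies of a mature name were counted once by the most abundant where a copy's total reached 0.8 of it, which made 464 features of 699 rows.

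From the deposited counts, features passing filterByExpr (minimum count 10, total 15) were scaled by TMM, and 4 group means were fitted with edgeR 4.0.16 (limma 3.58.1, R 4.3.3; estimateDisp, glmQLFit with robust=TRUE, glmQLFTest). A call is a Benjamini-Hochberg adjusted p under 0.05 over 410 features. SE is the log2 fold change over the square root of F. Arm ratios used a prior count of 0.5 and exact permutation tests. The fit was tested on simulated data. Members, lists and tests were chosen with earlier results of these data known. Named beside the members were cluster mates, markers, and the 3 features most like each major arm. Alternatives were other scalings, filters, DESeq2 1.42.0, limma-voom, fits of 6 libraries, summed copies, blocks and libraries left out.

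The reported fits paired no libraries, and a replicate block was an alternative only. For development in TCDD embryos the deviations of same-numbered libraries from their group means correlated at 0.25, 0.26 and 0.42. The same correlations were -0.23, 0.02 and 0.02 for development in DMSO embryos and -0.23, 0.02 and 0.11 for TCDD at 36 hpf. They were 0.13, 0.00 and -0.09 for TCDD at 60 hpf. Such values cannot show whether libraries of the same number shared a clutch or batch. Any pairing is read from the data, as the labels give the number alone. Counting floors of 3 counts cover counting error only, and reads carried no molecular identifiers that the labels mention.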

Additional observations from a re-analysis of the deposited data

How the results depend on the processing

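Of the members' log2 fold changes for TCDD at 60 and 36 hpf, 160 and 165 recomputed values moved by less than the spread between libraries, and 9 and 3 moved further. Total count and upper quartile scaling shifted the median of all features at 60 hpf by 0.31 and 0.25, and miR-27e with it, to 2.56 and 2.49. The number of features called at 60 hpf, 1 in the reported fit, was 10 by DESeq2, and 0 with 6 libraries alone, with a replicate block and without both TCDD libraries numbered 3 (an alternative chosen after seeing the data); it was 0 to 1 with 1 library left out. For the difference of the TCDD effects the reported 0 calls became 6 by DESeq2, and 0 to 2 with 1 library left out.

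For development in DMSO embryos the 75 calls became 120 by DESeq2 and 53 to 63 with 1 library left out. In TCDD embryos the 88 calls became 136 by DESeq2, 54 with 6 libraries alone and 58 to 82 with 1 library left out. With a replicate block they became 54 in DMSO and 60 in TCDD embryos. Values that changed sign passed in no setting; most were close to 0 in the reported fit, except miR-27b (0.56 in DMSO and 0.77 in TCDD embryos). For development in DMSO embryos miR-27d (0.01) became -0.091 (RLE), -0.28 (upper quartile), -0.058 (no filter), -0.091 (stricter filter), -0.081 (DESeq2), -0.011 (limma-voom), -0.089 (6 libraries), -0.024 (copies summed) and -0.0082 (replicate block), and -0.17 to 0.11 with 1 library left out. miR-27b* became -0.10 (upper quartile), miR-27e 0.053 (total count) and 0.010 (replicate block), miR-27e* 0.050 (total count), and with 1 library left out miR-27b and miR-27e ran from -0.050 to 1.04 and from -0.43 to 0.11. In TCDD embryos miR-27a became 0.18 (total count), miR-27a* -0.20 (limma-voom), -0.25 (replicate block) and -1.21 (without both TCDD libraries numbered 3), and miR-27b -0.32 (limma-voom) and -0.14 (replicate block). With 1 library left out these arms and miR-27b* ran from -0.55 to 0.084 (miR-27a), -1.01 to 0.67 (miR-27a*), 0.07 to 1.51 (miR-27b) and -0.14 to 0.55 (miR-27b*). miR-27d* became a call by total count scaling (2.57, adjusted p = 0.0339). Under total count scaling the median of all tested features for development in TCDD embryos was 0.53, against 0.08 in the reported fit. Under upper quartile scaling that for development in DMSO embryos was -0.20, against 0.08 in the reported fit.

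With 1 library left out the arm ratios' differences ran from -0.997 to -0.29 (miR-27a), -0.48 to 0.98 (miR-27b), -0.36 to 2.02 (miR-27c), -1.46 to -0.88 (miR-27d) and 1.05 to 1.604 (miR-27e), and that of miR-27b was -0.24 without both TCDD libraries numbered 3. Over all settings, and not only those with 1 library left out, the differences came as close to 0 as -0.46 (miR-27d) and -0.14 (miR-27a). No arm ratio passed in any setting, and the replicate block changed none of these calls. The cause of these changes was not tested. Depth limits miR-27d* most, with 0 to 39 counts per library.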

Other observations

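Over the 12 libraries log2 CPM of miR-27c* and miR-27e* correlated at a Pearson's r of 0.76, the highest of the 45 pairs of members, and miR-27c* and miR-27d at -0.71, the lowest. The other 9 pairs of minor arms lay between -0.44 and 0.34. Both miR-27c* and miR-27e* had their highest values in 36 hpf TCDD embryos, at 128 ± 52.9 and 37.7 ± 9.52 CPM, against 66.2 ± 17.4 and 9.55 ± 1.997 CPM in DMSO embryos of that time (SD, n = 3 each). These are descriptions over libraries that share times and treatments and differ in depth.

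Both the split between miR-27b and miR-27c and their sum varied between libraries of a group. In 60 hpf TCDD libraries miR-27c made up 47.6%, 60.3% and 68.0% of the sum of both, and the sum was 5.40, 411 and 376 CPM. In 60 hpf DMSO libraries the share was 23.3%, 77.1% and 43.3%, and the sum 170.4, 174 and 237 CPM. In 36 hpf TCDD libraries the share was 83.3%, 0% and 51.1% and the sum 180.3, 34.7 and 218 CPM. In 36 hpf DMSO libraries the share was 59.5%, 87.1% and 56.2% and the sum 203, 124 and 246 CPM.

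The library that lacked miR-27c at 36 hpf, TCDD replicate 2, had 9 features over 20 times below a median of 20 CPM or more in the other 11 libraries. Of the 9, let-7b* and miR-190b* were that far below in other 36 hpf libraries too. Among the 9 were also miR-144 and miR-34b, with 0 counts each, and miR-210, with 29 counts.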
